A study of Mus musculus with 9 samples.

Results

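The histone genes of MC38 cells were followed in 9 RNA-seq libraries. Members were taken by symbol alone: H1f, H2ac, H2bc, H3c and H4c genes followed by a digit, the H2a and H2b variants, the H3f genes and the Macroh2a genes. This gave 72 of the 16399 listed genes, of which 59 were clustered histone genes (H2ac, H2bc, H3c, H4c and H1f1 to H1f6) and 13 were variant or replacement genes. Of the clustered genes, 50 lie on chromosome 13 and 9 on chromosome 3 in the RefSeq table of GRCm38.p6. The variant genes are spread over 9 chromosomes.

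MC38 is a mouse colon carcinoma line. MC38-P denotes the parental cells, while MC38-LM3a and MC38-LM3b are third-generation derivatives from 3 rounds of in vivo selection, in which cells with a GFP-luciferase reporter were injected into the spleen and recovered from liver metastases. The paper calls them independently derived and names MC38-LM2 as the second-generation derivative. Its text does not state whether both came from MC38-LM2, so they may share the first 2 rounds. Each line was sequenced in 3 libraries described as biological replicates of cultured cells, without any added treatment. Whether replicates were separate cultures is not given in the sources used here, so p-values measure the spread between these libraries. Each derivative is 1 selected population, so a difference from MC38-P belongs to that population. Expression is given as TPM, a transcript abundance scaled for gene length that sums to 1000000 in each library, and the number of reads behind them is unknown. Between 10875 and 11218 genes reached 1 TPM per library. Of the 10 epithelial markers examined, Krt8 and Krt18 lay between 707 and 1206 TPM, Krt19 between 105 and 157, Epcam between 1.87 and 6.31 and Cdx2 between 0.28 and 2.86, whereas Cdh1 did not exceed 0.080 and Vil1 did not exceed 0.13 TPM. In all, 6 of the 10 reached 1 TPM in some library.

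Histones package DNA into nucleosomes, made of the core histones H2A, H2B, H3 and H4, with the linker histone H1 bound where DNA enters and leaves. Clustered histone genes are transcribed mainly in S phase, and their mRNAs usually end in a short stem-loop bound by SLBP in place of a poly(A) tail. Variant genes are transcribed through the cell cycle, carry introns in many cases, and give polyadenylated mRNAs. The libraries were made from RNA captured by oligo(dT) beads, so a clustered histone mRNA with no poly(A) tail should be largely lost, and a TPM of such a gene counts only the transcripts the capture retained.

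Stem-loops are shown for the clustered genes highest in H1, H2A, H3 and H4 (H1f2, H2ac11, H3c3 and H4c9), for H4c2, for the pair H2ac18 and H2ac19 that share a sequence, and for the variant gene H2ax, because they mark the transcripts that normally lack a tail. They were read from GENCODE M21 transcripts (GRCm38), 5′ to 3′ on the transcript strand, and capitals mark the 16 bases of the motif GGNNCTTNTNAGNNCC.
H1f2: atccaaaaGGCTCTTTTCAGAGCCacca
H2ac11: ccaacaaaGGCTCTTTTCAGAGCCacct
H2ac18: cctaaaaaGGCTCTTTTCAGAGCCaccc
H2ac19: cctaaaaaGGCTCTTTTCAGAGCCaccc
H3c3: taaaaaaaGGCTCTTTTAAGAGCCacct
H4c2: ttacaaaaGGTCCTTTTCAGGACCactc
H4c9: tacttaaaGGCCCTTTTTAGGGCCacca
H2ax: tccacaaaGGCCCTTTTAAGGGCCacca
The motif was found within 100 bases of the stop codon in 41 of 59 clustered genes and in 1 of 13 variant genes, H2ax. Anywhere in a transcript it was present in 201 of 55450 GENCODE genes (0.362%). Its letters were widened after the ends of the member transcripts had been read, and 13 clustered gene models end within 2 bases of the stop codon, where no loop can be seen.

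The annotated transcripts also differ in what follows the loop. In H2ac11 only 23 bases follow it and in H3c3 only 74, with no polyadenylation signal (AATAAA or ATTAAA). By contrast, 840 bases follow the loop of H1f2 and 330 that of H4c9, in each case with a signal. No loop was found in H2bc4, whose model is spliced and runs 742 bases past the stop codon, nor in H2bc21, which runs 2192 bases past it, and both have a signal. In all, 18 clustered models held such a signal after the stop codon and 41 did not, but 13 of the 41 end within 2 bases of the stop codon, where no signal could be seen. The letters were searched at any position after the stop codon, and a longer model offers more bases in which to match. Models with a match ran 93 (H4c8) to 4931 (H1f3) bases past the stop codon, and those without one 0 (H1f5) to 1209 (H1f4).

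Levels in the captured RNA were low for most clustered genes. The mean over 9 libraries was under 5 TPM in 47 of 59 clustered genes and at least 10 TPM in 7, with a median of 1.79 and a maximum of 105 TPM. In 24 clustered genes at least 1 library was listed at 0. The 13 variant genes had a median of 54.3 and a maximum of 1349 TPM. The 18 clustered genes with a polyadenylation signal in the model had a median of 1.90 TPM and the 41 without one a median of 1.79. The maximum was 105 TPM with a signal and 14.5 TPM without one.

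H4c9 (NCBI Gene 319158), one of the genes for the core histone H4, was the most abundant clustered member. Its values were 119.5, 114.0 and 117.6 TPM in MC38-P, 113.6, 101.8 and 121.0 in MC38-LM3a, and 89.7, 84.2 and 82.1 in MC38-LM3b. All 3 MC38-LM3b libraries lay below every other library. H1f2 (NCBI Gene 50708), which encodes a linker histone, came next with 61.6, 72.9 and 65.9 TPM in MC38-P, 124.6, 114.7 and 110.1 in MC38-LM3a, and 103.4, 98.1 and 97.4 in MC38-LM3b. The 3 lines did not overlap for H1f2, and MC38-LM3a was the highest. The other 57 clustered genes held 212 ± 31.2 TPM in MC38-P (SD, n = 3), against 168 ± 12.4 for MC38-LM3a and 162 ± 10.6 for MC38-LM3b. H1f2 gave 16.9% ± 0.183 of the clustered sum in MC38-P (SD, n = 3), against 29.3% ± 1.01 for MC38-LM3a and 28.8% ± 1.24 for MC38-LM3b. The shares of H4c9 were 29.8% ± 3.25, 28.3% ± 2.85 and 24.6% ± 1.35 in the same order.

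Summed over the 59 clustered genes, the libraries held 362.1, 430.2 and 395.4 TPM in MC38-P, 408.8, 395.4 and 385.6 in MC38-LM3a, and 342.3, 351.0 and 345.9 in MC38-LM3b. The MC38-LM3a libraries fell within the range of MC38-P, and all 3 MC38-LM3b libraries lay below it. The 13 variant genes summed to 3383 ± 66.7 TPM in MC38-P (SD, n = 3), against 3124 ± 164 for MC38-LM3a and 3011 ± 40.0 for MC38-LM3b. As a percent of the variant sum, the clustered sum was 10.9, 12.7 and 11.5% in MC38-P, 12.6, 12.4 and 13.1% in MC38-LM3a, and 11.2, 11.6 and 11.7% in MC38-LM3b. Both derivatives overlapped MC38-P in this ratio, with means of 11.7% ± 0.940, 12.7% ± 0.381 and 11.5% ± 0.231 (SD, n = 3). No test was run on the sums. By family, the H1 genes, of which H1f2 made up nearly all, summed to 71.4 ± 6.55 TPM in MC38-P, against 120 ± 7.24 for MC38-LM3a and 102 ± 3.81 for MC38-LM3b, while the H3 genes summed to 45.5 ± 4.04, 28.7 ± 1.68 and 25.2 ± 5.26. In the same order the H4 genes summed to 168 ± 11.8, 149.8 ± 6.37 and 120.4 ± 5.94 TPM, the H2A genes to 56.4 ± 2.62, 46.7 ± 9.65 and 41.8 ± 1.67, and the H2B genes to 54.5 ± 9.84, 51.8 ± 1.03 and 56.9 ± 7.12. Without H4c9 and H1f2, the clustered sum was 6.26% ± 0.884 of the variant sum in MC38-P, against 5.38% ± 0.200 for MC38-LM3a and 5.37% ± 0.403 for MC38-LM3b.

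**Figure D1:**
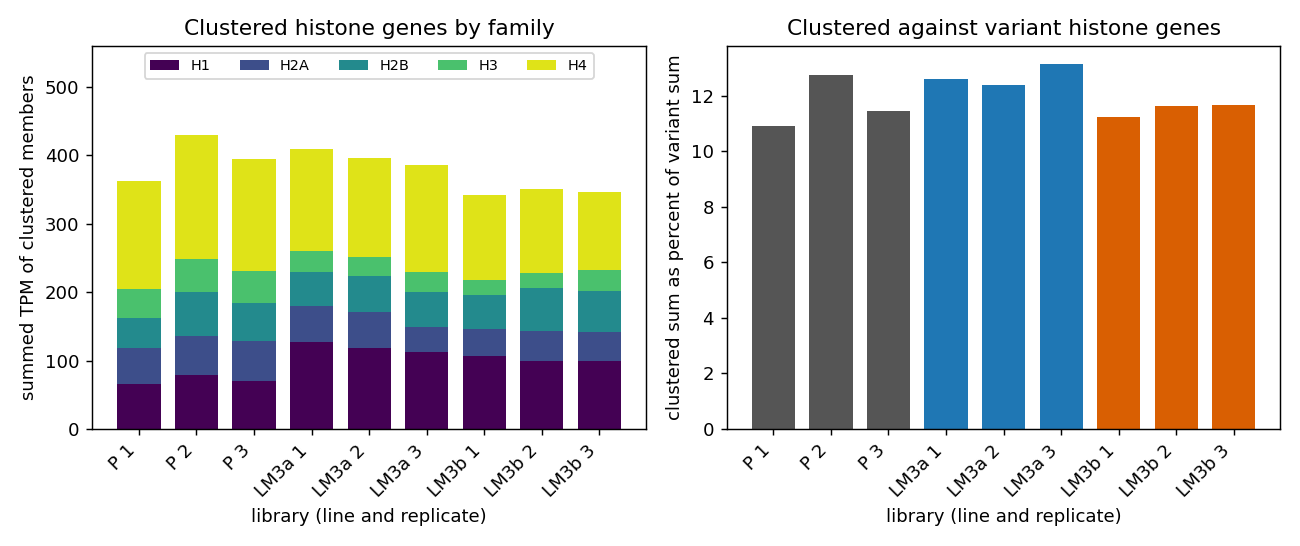
Summed TPM of the 59 clustered histone genes in each of the 9 libraries, stacked by family (left), and the clustered sum as a percent of the summed TPM of the 13 variant genes (right, bars colored by line). The H1 part of the bars, nearly all of it H1f2, is larger in both derivatives and the H3 part smaller, while the ratio stays between 10.9 and 13.1% in every library.

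The comparison of each derivative with MC38-P was made gene by gene on log2(TPM + 1), which understates the change of low genes. Of the members, 53 clustered and 10 variant genes reached 1 TPM in 3 or more libraries and were tested among 11287 genes. The 6 clustered genes that were not tested had at most 2.73 TPM in any library (H2bc22, followed by H2ac21 at 2.16, H3c7 at 1.6, H2ac6 at 1.33 and H2ac10 at 0.69), and H1f6 had at most 0.25 TPM. The 3 untested variant genes, H1f8, H1f9 and H3f4, had at most 0.56 TPM, reached by H1f9. A gene was called at a Benjamini-Hochberg adjusted p-value under 0.05 in limma, and was a differentially expressed gene (DEG) if it also changed by more than 1 on the log2 scale in either direction.

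In MC38-LM3a, 12 of 63 tested members (19%) were called, 5 higher and 7 lower, against 28% of all tested genes. Among the clustered genes 3 of 53 rose (5.66%, against 14.1% of all genes) and 4 fell (7.55%, against 13.8%). The DEGs among the members were 0 that rose and 3 that fell (H2ac11, H3c3 and H4c3), where 2.89% of all genes were DEGs, 1.39% higher and 1.5% lower. In MC38-LM3b, 17 of 63 members (27%) were called, 6 higher and 11 lower, against 46.7% of all tested genes. Of the clustered genes 4 rose (7.55%, against 35.6%) and 8 fell (15.1%, against 11.2%). Here 1 member was a DEG that rose (H3c2) and 3 were DEGs that fell (H3c3, H3c13 and H4c2), where 3.93% of all genes were DEGs, 2.76% higher and 1.18% lower. H3c2 passed the filter only through MC38-LM3b. With each library centred on its median gene, 5 members were higher and 17 lower in MC38-LM3b, among 22.9% of all genes higher and 26.4% lower. Of the 10 tested variant genes 2 rose and 3 fell in each comparison, so 50% were called, against 28% and 46.7% of all genes. The share of members called depended on the low genes. With a filter of 5 TPM in 3 libraries, 10 of 26 tested members were called in MC38-LM3a (against 27.6% of all genes) and 13 of 26 in MC38-LM3b (against 47.5%). Neither share then lay below that of all genes. The median log2 fold change of the 53 clustered genes was -0.26 for MC38-LM3a and -0.24 for MC38-LM3b, against 0.00 and 0.21 over all tested genes. Without H2bc7, listed at 0 in every MC38-P library, the clustered medians were -0.28 and -0.26. Because the median of all genes in MC38-LM3b lay at 0.21, changes of its called members are also given relative to it. Both comparisons share the MC38-P libraries. Groups did not overlap for 16 of 63 members in MC38-LM3a (25.4%, against 36.2% of all genes), 7 higher and 9 lower, where 20.3% of all genes were higher and 15.9% lower without overlap. In MC38-LM3b this held for 20 members (31.7%, against 66.7%), 6 higher and 14 lower, where 51.3% of all genes were higher and 15.4% lower.

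**Figure D2:**
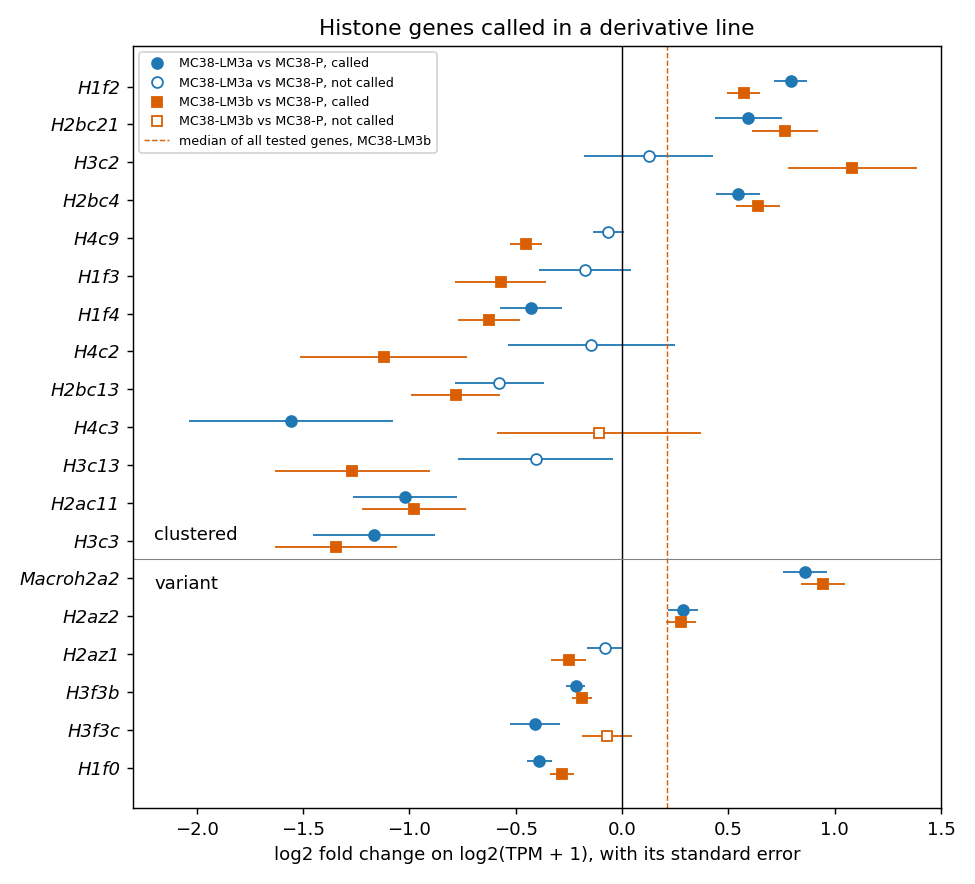
Log2 fold changes of every member called in at least 1 derivative, with standard errors from the limma model of 9 libraries, for MC38-LM3a (circles) and MC38-LM3b (squares) against MC38-P. Filled symbols passed an adjusted p-value of 0.05, and the dashed line marks the median of all tested genes in MC38-LM3b, 0.21. H1f2, H2bc21, H2bc4, Macroh2a2 and H2az2 are filled to the right in both comparisons, and H3c3, H2ac11, H1f4, H1f0 and H3f3b to the left.

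H1f2 had the largest rise among the clustered genes called in MC38-LM3a. Its mean was 1.74 times that of MC38-P in MC38-LM3a (log2 fold change 0.79, SE 0.078, adjusted p = 4.5e-05) and 1.49 times in MC38-LM3b (0.57, SE 0.078, adjusted p = 0.00028, or 0.36 above the median of all genes). The other 4 linker histone genes of the cluster summed to 4.57 ± 0.885 TPM in MC38-P (SD, n = 3), against 3.12 ± 0.779 for MC38-LM3a and 2.49 ± 0.665 for MC38-LM3b. H1f4 had 1.56, 1.92 and 1.29 TPM in MC38-P, 1.12, 0.73 and 0.91 in MC38-LM3a, and 0.68, 0.46 and 0.91 in MC38-LM3b. It fell by 0.43 on the log2 scale in MC38-LM3a (adjusted p = 0.049) and by 0.62 in MC38-LM3b (-0.83 relative to the median of all genes, adjusted p = 0.0061). H1f4 passed the filter of 1 TPM in 3 libraries only through MC38-P, the line where it was highest. Both calls held with no filter. The MC38-LM3a call of H1f4 was lost when any 1 library was left out other than MC38-P replicate 3, with adjusted p-values from 0.054 to 0.18. H1f3 fell by 0.57 in MC38-LM3b (-0.78 relative to that median, adjusted p = 0.049), a call lost without MC38-P replicate 1 or 2 or MC38-LM3b replicate 2 or 3 (adjusted p = 0.085, 0.17, 0.12 and 0.17). H1f5 lay between 0.44 and 1.97 TPM in all libraries and was not called.

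The 2 most abundant H2B genes rose in both derivatives. H2bc4 (NCBI Gene 68024) had 7.68, 9.12 and 8.37 TPM in MC38-P, 12.2, 13.4 and 12.5 in MC38-LM3a, and 12.7, 14.3 and 13.8 in MC38-LM3b, so both derivatives lay above every MC38-P library. This was 1.51 times (log2 fold change 0.55, SE 0.10, adjusted p = 0.0027) and 1.62 times the parental mean (0.64, SE 0.10, adjusted p = 0.00076, or 0.43 above the median of all genes). H2bc21 (NCBI Gene 319190), on chromosome 3, had 9.80, 7.91 and 6.83 TPM in MC38-P, 10.4, 12.4 and 15.9 in MC38-LM3a, and 14.5, 14.7 and 14.2 in MC38-LM3b. It rose 1.58 times in MC38-LM3a (log2 fold change 0.59, SE 0.16, adjusted p = 0.017, but 0.060 without MC38-P replicate 2, 0.057 with the replicate block and 0.058 with only the libraries compared) and 1.77 times in MC38-LM3b (0.77, SE 0.16, adjusted p = 0.0030, or 0.56 above the median of all genes). H2bc23 and H2bc24, the other clustered genes with a polyadenylation signal and no loop, were not called (log2 fold change -0.62 and -0.10 for each gene). Of the 15 tested clustered genes with a signal in the model, 3 rose and 0 fell in MC38-LM3a (20% higher, against 14.1% of all genes) and 12 were not called, with a median of -0.21 on the log2 scale. Of the 38 without a signal, 0 rose and 4 fell there (10.5% lower, against 13.8% of all genes), with a median of -0.31. In MC38-LM3b, where 35.6% of all genes were higher and 11.2% lower, 3 rose and 2 fell of those with a signal (20% and 13.3%), so the share that rose lay below that of all genes. Of those without a signal, 1 rose and 6 fell there (2.63% and 15.8%). The medians were -0.31 and -0.23. The difference between these sets was not tested, and the sets also differ in model length.

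H2ac11 and H3c3, the most abundant H2A and H3 genes of the clusters, fell in both derivatives. H2ac11 (NCBI Gene 319167) had 23.3, 24.7 and 18.1 TPM in MC38-P, 12.4, 14.3 and 5.97 in MC38-LM3a, and 10.3, 10.5 and 10.97 in MC38-LM3b. It fell to 0.495 times the parental mean in MC38-LM3a (log2 fold change -1.02, SE 0.25, adjusted p = 0.011) and to 0.481 times in MC38-LM3b (-0.98, or -1.19 relative to the median of all genes, SE 0.25, adjusted p = 0.0087). H3c3 (NCBI Gene 319148) had 20.1, 18.6 and 18.8 TPM in MC38-P, 12.1, 4.01 and 10.1 in MC38-LM3a, and 6.55, 8.33 and 6.10 in MC38-LM3b. It fell to 0.455 times (log2 fold change -1.17, SE 0.29, adjusted p = 0.012) and 0.365 times the parental mean (-1.35, or -1.56 relative to that median, SE 0.29, adjusted p = 0.0037). No derivative library of either gene overlapped MC38-P, and both calls held in each of the 21 alternative fits, in which adjusted p-values reached at most 0.049. In bulk RNA, fewer cells in S phase and less of this RNA per cell cannot be told apart.

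**Figure D3:**
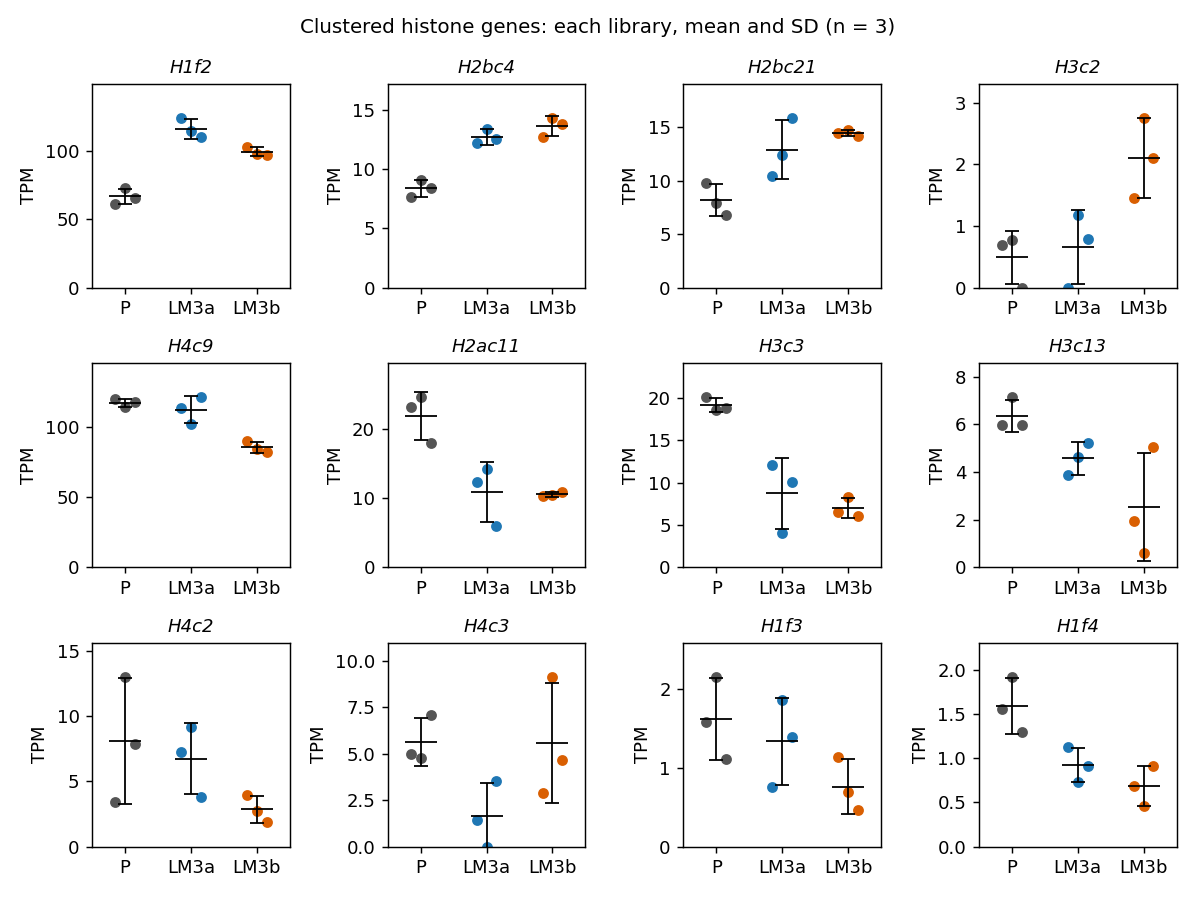
TPM of 12 of the 13 clustered members called in at least 1 derivative (all but H2bc13), in each library of the 3 lines (points, n = 3 per line), with the mean (long bar) and SD (error bar), on axes that start at 0 and labeled P, LM3a and LM3b. H1f2, H2bc4 and H2bc21 lie above the parental points in both derivatives, H2ac11 and H3c3 below them, and H4c9 below them in MC38-LM3b, where its points lie at 82.1 to 89.7 TPM.

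H4c9 was called in MC38-LM3b, at 0.729 times the parental mean (log2 fold change -0.45, SE 0.074, adjusted p = 0.00084, and 0.66 below the median of all genes). In MC38-LM3a its log2 fold change was -0.06 (adjusted p = 0.57). The remaining calls concerned genes with means under 10 TPM. H4c2 had 3.42, 13.01 and 7.83 TPM in MC38-P against 3.94, 2.71 and 1.91 in MC38-LM3b, with a log2 fold change of -1.12 (-1.33 relative to the median of all genes, SE 0.39, adjusted p = 0.038). MC38-P and MC38-LM3b overlapped for H4c2, and its call was lost without MC38-P replicate 2 (adjusted p = 0.14) or 3 (0.086) and without MC38-LM3b replicate 2 (0.090) or 3 (0.12). H4c3 had 5.00, 4.79 and 7.11 TPM in MC38-P and 1.45, 0 and 3.52 in MC38-LM3a, where it fell by 1.56 on the log2 scale (SE 0.48, adjusted p = 0.034). In MC38-LM3b H4c3 was listed at 2.90, 9.15 and 4.69 TPM and was not called. The MC38-LM3a call of H4c3 was lost without MC38-P replicate 1, 2 or 3, MC38-LM3a replicate 1 or 2 or MC38-LM3b replicate 3, with adjusted p-values from 0.051 to 0.094.

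H3c13 had 5.97, 7.15 and 5.99 TPM in MC38-P and 1.95, 0.59 and 5.05 in MC38-LM3b, where it fell by 1.27 on the log2 scale (-1.48 relative to the median of all genes, adjusted p = 0.017, but 0.053 without MC38-P replicate 2 and 0.051 without MC38-LM3b replicate 1). H2bc13 fell by 0.78 in MC38-LM3b (-0.99 relative to that median, adjusted p = 0.012), with 1.45, 2.08 and 2.51 TPM in MC38-P and 0.68, 0.74 and 0.78 in MC38-LM3b. It passed the filter of 1 TPM in 3 libraries only through MC38-P, the line where it was highest, and the call held with no filter. H3c2 was the sole clustered DEG that rose, with 0.70, 0.77 and 0 TPM in MC38-P, 0, 1.18 and 0.79 in MC38-LM3a, and 1.45, 2.76 and 2.1 in MC38-LM3b (log2 fold change 1.08, or 0.87 relative to the median of all genes, SE 0.30, adjusted p = 0.015). H3c2 passed the filter of 1 TPM in 3 libraries only through MC38-LM3b, the line where it was highest. The call held with no filter. Its call was lost with a pseudocount of 0.1 (adjusted p = 0.070) and without MC38-P replicate 3 (0.051) or MC38-LM3b replicate 2 (0.060). The smallest value above 0 among the 33 clustered genes with models under 600 bases was 0.15 to 0.66 TPM per library, close to the levels of H3c2. H2bc7 was listed at 0 in all of MC38-P, at 0, 1.43 and 1.80 TPM in MC38-LM3a and at 0, 3.27 and 1.67 in MC38-LM3b, and was not called (adjusted p = 0.19 and 0.068), although it was called higher in MC38-LM3b in 6 alternatives: with the replicate block (adjusted p = 0.036), the offsets (0.041) or both (0.023), and without MC38-LM3b replicate 1 (0.0086) or MC38-LM3a replicate 1 (0.043) or 3 (0.034). H4c4, with 8.81, 8.48 and 8.56 TPM in MC38-P and 7.91, 4.67 and 2.40 in MC38-LM3b, had a log2 fold change of -0.79 there and was not called (adjusted p = 0.062), but was called lower with quantile normalization (0.015), median centring (0.021) and the length and GC offsets (0.036), and without MC38-LM3b replicate 1 (0.016).

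Members that were not called passed the threshold in at least 1 of the 21 alternatives: 11 of 51 in MC38-LM3a (21.6%, against 41.7% of all genes not called) and 16 of 46 in MC38-LM3b (34.8%, against 57.3%). In MC38-LM3b, H2ac22, H2bc7 and H4c4 did so in 5 or more. H2ac22 had 1.07, 1.59 and 1.32 TPM in MC38-P, 1.42, 0.73 and 4.17 in MC38-LM3a, and 0, 0.79 and 0 in MC38-LM3b. Its log2 fold change in MC38-LM3b was -0.93 (adjusted p = 0.051), and it was called lower there in 8 alternatives (adjusted p-values from 0.0035 to 0.032). Of the 21 alternatives, leaving out MC38-P replicate 1 was the only 1 that called H3c10 and H2bc11 against MC38-P. H3c10 had 1.67, 6.53 and 9.33 TPM in MC38-P, 3.21, 2.5 and 1.83 in MC38-LM3a, and 1.53, 2.90 and 2.77 in MC38-LM3b, and was not called (adjusted p = 0.19 and 0.12). Without MC38-P replicate 1 it was called lower in both derivatives (adjusted p = 0.0037 and 0.0018). H2bc11, with 3.93, 11.3 and 13.2 TPM in MC38-P, behaved alike (adjusted p = 0.33 and 0.64 with all libraries, and 0.020 and 0.048 without MC38-P replicate 1). Replicates of MC38-P and MC38-LM3a also differed along transcript length: the deviation of a library from the mean of its replicates had a Spearman correlation with length of 0.51, 0.41 and -0.62 in MC38-P and of -0.55, -0.51 and 0.64 in MC38-LM3a, across 11096 genes, which are not independent. In MC38-LM3b it lay between -0.013 and 0.016. Its part in the member results was not tested apart from the length and GC offsets, under which MC38-LM3a had 14 members called (against 51.1% of all genes) and MC38-LM3b 20 (against 57.6%).

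The genes that changed lie side by side with genes that did not, or that changed the other way. In the RefSeq order of the genes listed in these files, H3c3, which fell, directly follows H1f2, which rose. H2bc4, which rose, lies between the untested H2ac6 and H1f6, with H1f4 on one side and H4c3 on the other. H4c9 and H2ac11 are neighbors, and so are H3c2, which rose in MC38-LM3b, and H4c2, which fell there. Chromosome 13 as a whole, with 468 tested genes, had a median of 0.01 in MC38-LM3a and of 0.18 in MC38-LM3b on the log2 scale, near that of all genes.

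H2ac11 and H2bc11 are transcribed away from each other, with starts 249 bases apart in RefSeq, and so share 1 upstream stretch. It is shown with the upstream bases of H1f2 and H3c3, neighbors that changed in opposite directions. The sequences are from the RefSeq promoter table (GRCm38.p6), on the strand of the gene, and capitals mark CCAAT or its reverse complement.
H2ac11, chr13:22042950-22043199, minus strand: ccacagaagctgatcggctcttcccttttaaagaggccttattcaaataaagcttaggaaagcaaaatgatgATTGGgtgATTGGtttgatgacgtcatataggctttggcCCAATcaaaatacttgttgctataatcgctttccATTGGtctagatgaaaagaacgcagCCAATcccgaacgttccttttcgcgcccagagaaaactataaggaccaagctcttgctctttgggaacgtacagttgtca
H1f2, chr13:23738557-23738806, plus strand: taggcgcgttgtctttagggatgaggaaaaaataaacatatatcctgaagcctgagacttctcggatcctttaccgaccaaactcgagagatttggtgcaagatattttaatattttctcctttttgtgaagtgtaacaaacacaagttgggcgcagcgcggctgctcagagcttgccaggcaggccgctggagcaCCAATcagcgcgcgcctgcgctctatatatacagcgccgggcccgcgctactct
H3c3, chr13:23745522-23745771, minus strand: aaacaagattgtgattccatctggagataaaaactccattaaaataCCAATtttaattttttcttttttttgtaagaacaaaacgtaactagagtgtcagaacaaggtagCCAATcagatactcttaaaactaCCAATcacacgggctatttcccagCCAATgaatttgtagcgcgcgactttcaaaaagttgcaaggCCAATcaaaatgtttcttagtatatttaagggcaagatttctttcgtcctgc
CCAAT was found 5 times in the H2ac11 stretch, once in that of H1f2 and 5 times in that of H3c3. Over promoters of the same length, searched on both strands, CCAAT was present in 33.8% of 32851 RefSeq promoters, in 85.5% of 55 clustered histone promoters and in 66.7% of 12 variant ones. TATAAA was present in 12.4%, 43.6% and 8.33%, and ATTTGCAT, the octamer known from H2B promoters, in 1.6%, 20% and 8.33%. Within the clustered families, CCAAT was present in each of the 16 H2A and 15 H2B promoters and in 3 of 10 H4 promoters. The stretch shared by H2ac11 and H2bc11 counts in both families, so the promoters are not independent units. The motifs did not overlap each other in the 3 printed stretches, and a match is a description of the letters alone.

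Several clustered genes cannot be told apart in these values. H2ac18 and H2ac19, a pair of H2A genes on chromosome 3, have the same coding sequence of 393 bases and the same stem-loop. H2ac18 was listed at 0, 4.11 and 3.86 TPM in MC38-P, 4.79, 8.76 and 6.20 in MC38-LM3a, and 0, 0 and 9.19 in MC38-LM3b. H2ac19 was listed at 4.29, 1.37 and 1.91, then 3.85, 0 and 0, then 6.90, 7.38 and 0 TPM in the same libraries. In 6 of the 9 libraries 1 gene of the pair held all of the signal and the other was listed at 0. Their sum varied far less, with 4.29, 5.48 and 5.77 TPM in MC38-P, 8.64, 8.76 and 6.20 in MC38-LM3a, and 6.90, 7.38 and 9.19 in MC38-LM3b.

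Neither gene of the pair was called alone, with adjusted p-values from 0.28 to 0.78. When genes with identical coding sequences were summed before the test, an alternative chosen after seeing the data, the pair was higher in MC38-LM3a (log2 fold change 0.52, SE 0.16, adjusted p = 0.035) and in MC38-LM3b (0.51, or 0.30 relative to the median of all genes, SE 0.16, adjusted p = 0.023). Both calls depended on the settings. Over 19 further alternatives, also chosen after seeing the data, the call of the summed pair was lost in 9 for MC38-LM3a (adjusted p-values from 0.055 to 0.12) and in 6 for MC38-LM3b (from 0.052 to 0.34), among them median centring (0.077 and 0.27), the replicate block (0.084 and 0.058) and leaving out MC38-P replicate 1 (0.12 and 0.073). Every derivative library of the summed pair lay above every MC38-P library. H2bc23 and H2bc24, which share a coding sequence of 405 bases, had equal values in each library, from 0.35 to 4.18 TPM for each gene, and their sum was not called (adjusted p = 0.28 and 0.87). H2ac23 and H2ac24 also share a coding sequence, and their sum ranged from 2.20 to 6.40 TPM and was not called (adjusted p = 0.65 and 0.76). In all, 40 of the 72 members had another member of equal coding length at 97% identity or more, among them H2ac11 (99.5% to H2ac7), H2bc4 (99.0% to H2bc11), H3c3 (98.5% to H3c2) and H3c13 (99.8% to H3c15). The values of these genes are uncertain to the extent that reads were split between copies.

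**Figure D4:**
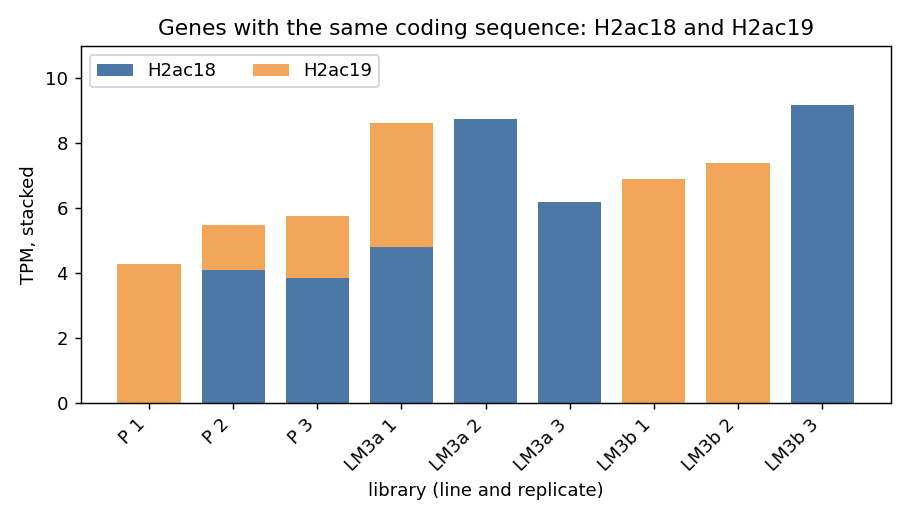
TPM of H2ac18 and H2ac19, stacked, in each of the 9 libraries. The share of the 2 genes switches between libraries, while the height of the stack is 4.29 to 5.77 TPM in MC38-P and 6.20 to 9.19 TPM in the derivatives.

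Of the 13 variant genes, 8 had a mean of at least 10 TPM and 5 a mean under 5 TPM. H2az1, the replication-independent H2A.Z gene, was the most abundant, with 1334, 1462 and 1562 TPM in MC38-P, 1485, 1441 and 1206 in MC38-LM3a, and 1251, 1212 and 1191 in MC38-LM3b. It fell by 0.25 on the log2 scale in MC38-LM3b (-0.46 relative to the median of all genes, SE 0.083, adjusted p = 0.030). This call was lost without MC38-P replicate 2 (adjusted p = 0.076) or 3 (0.10) and without MC38-LM3b replicate 1 (0.061), 2 (0.082) or 3 (0.091). H2az2, its paralog, was higher in both derivatives: 52.5, 55.2 and 57.3 TPM in MC38-P, 69.2, 69.2 and 63.5 in MC38-LM3a, and 70.4, 66.9 and 63.3 in MC38-LM3b. It rose 1.22 times in each (log2 fold change 0.29 and 0.28, adjusted p = 0.013 and 0.011). In MC38-LM3a the call was lost with median centring (adjusted p = 0.084), with the replicate block and offsets together (0.064) and without MC38-LM3a replicate 1 (0.054) or 2 (0.051). In MC38-LM3b this rise was only 0.07 above the median of all genes, and the call was lost with the offsets (adjusted p = 0.12), with quantile normalization (0.36), with median centring (0.73) and without MC38-LM3b replicate 1 (0.054).

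Macroh2a2, a macroH2A gene whose product carries a large non-histone domain, showed the largest rise among the variants. It had 2.49, 2.57 and 2.43 TPM in MC38-P, 5.79, 5.08 and 5.21 in MC38-LM3a, and 5.67, 5.97 and 5.54 in MC38-LM3b, and no derivative library overlapped MC38-P. The mean was 2.15 times (log2 fold change 0.86, SE 0.10, adjusted p = 0.00018) and 2.29 times that of MC38-P (0.94, SE 0.10, adjusted p = 7.2e-05, or 0.73 above the median of all genes). Macroh2a1, its more abundant paralog, ranged from 107 to 144 TPM and was not called (log2 fold change 0.01 and 0.15, adjusted p = 0.95 and 0.25).

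Of the genes for H3.3, the replacement form of H3, H3f3b fell and H3f3a was not called. H3f3b had 673, 680 and 676 TPM in MC38-P, 580, 597 and 568 in MC38-LM3a, and 584, 598 and 600 in MC38-LM3b (log2 fold change -0.22 and -0.19, SE 0.046 in both, adjusted p = 0.0055 and 0.0081), the latter -0.40 relative to the median of all genes. The MC38-LM3a call was lost with median centring (adjusted p = 0.12). H3f3a, at 521 to 600 TPM, had log2 fold changes of -0.02 and -0.02 (adjusted p = 0.86 and 0.80), but was called lower in MC38-LM3b with the offsets (-0.24, adjusted p = 0.034). H3f3c, whose GENCODE M21 model carries no coding sequence, had 2.4, 2.36 and 2.5 TPM in MC38-P and 1.37, 1.55 and 1.82 in MC38-LM3a (log2 fold change -0.41, adjusted p = 0.024). That call was lost without MC38-P replicate 1 or 2 or MC38-LM3a replicate 1 or 2, with adjusted p-values from 0.056 to 0.096.

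H1f0 encodes the linker histone H1.0 of slowly dividing and differentiated cells and is a variant by its single-copy locus outside the clusters. It had 444, 422 and 409 TPM in MC38-P, 308, 323 and 343 in MC38-LM3a, and 349, 348 and 350 in MC38-LM3b. It fell by 0.39 (SE 0.057, adjusted p = 0.00065) and by 0.28 on the log2 scale (-0.49 relative to the median of all genes, SE 0.057, adjusted p = 0.0029), opposite to H1f2. H1f0 is on chromosome 15, whose 464 tested genes had a median of -0.53 in MC38-LM3a and of -0.31 in MC38-LM3b on the log2 scale, both beyond the change of H1f0 itself, and the part of this in the H1f0 result was not tested. H2ax, which serves both S phase and DNA damage signaling, had 47.9 to 54.6 TPM in MC38-P, against 53.7 to 60.6 for MC38-LM3a and 54.3 to 55.7 for MC38-LM3b, and was not called (adjusted p = 0.12 and 0.23). With length and GC offsets H2ax was called higher in MC38-LM3a (adjusted p = 0.0081). H2aj ranged from 20.8 to 26.3 TPM and was not called, but was called lower in MC38-LM3b with the offsets (adjusted p = 0.039), quantile normalization (0.0087) and median centring (0.010).

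**Figure D5:**
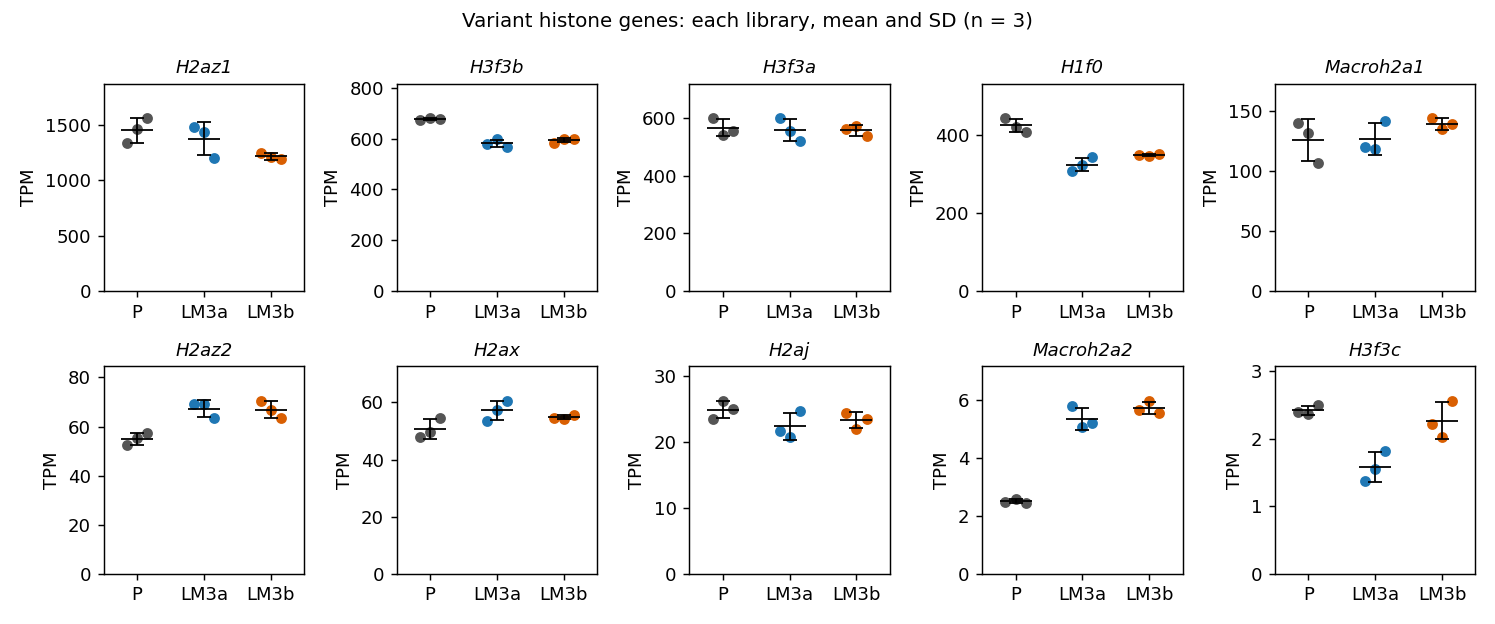
TPM of the 10 tested variant histone genes in each library (points, n = 3 per line), with mean and SD, on axes that start at 0. Macroh2a2 is about 2.15 and 2.29 times the parental mean in the derivatives and H1f0 and H3f3b lie lower in both, while H3f3a, Macroh2a1, H2aj and H2ax overlap between lines in at least 1 comparison.

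MC38-LM3b and MC38-LM3a differed in 0 of 63 members (limma, with 9 at an unadjusted p under 0.05), where 0.0532% of all tested genes were called and 38.1% had an unadjusted p under 0.05. These called genes were 0.0354% higher and 0.0177% lower, with 0.0266% DEGs, all of them (0.0266%) higher. Groups did not overlap for 7 of 63 members (11.1%, against 42% of all genes), 4 higher and 3 lower in MC38-LM3b, where 38.4% of all genes were higher and 3.6% lower. For H4c9 the difference was -0.39 on the log2 scale (SE 0.074, adjusted p = 0.12), and quantile normalization or median centring called it lower in MC38-LM3b. This comparison depended on MC38-LM3a replicate 3: without it 13 members were called, 6 higher and 7 lower in MC38-LM3b, among 56.4% of all tested genes.

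The list for the histone mRNA 3′ end held 25 genes, among them SLBP, the U7 snRNP proteins, the cleavage complex and the decay factor Tut7. It had 1 rise and 5 falls in MC38-LM3a (24% called, against 28% of all genes) and 2 rises and 3 falls in MC38-LM3b (20% called, against 46.7%), with medians of -0.10 and 0.09. The falls in MC38-LM3b became 10 with offsets, where 28.3% of all genes were lower, 10 with median centring (26.4%) and 7 with quantile normalization (24.5%). In MC38-LM3a they became 9 with offsets, where 24.6% of all genes were lower. Slbp, the stem-loop binding protein gene, had 148 ± 8.88 TPM in MC38-P (SD, n = 3), against 148 ± 7.87 for MC38-LM3a and 152 ± 3.97 for MC38-LM3b (log2 fold change -0.01 and 0.03, adjusted p = 0.95 and 0.69). Npat, the coactivator of clustered histone transcription, had 23.1 ± 3.95, 22.5 ± 5.42 and 29.9 ± 0.571 TPM and was not called (adjusted p = 0.87 and 0.078). Its replicates had 25.9, 24.8 and 18.6 TPM in MC38-P and 19.3, 19.4 and 28.7 in MC38-LM3a. They were ordered like the deviations of these libraries along transcript length, whose part in this was not tested. Snrpb, a core snRNP protein gene and the most abundant of the list, fell by 0.19 and 0.25. Cpsf1, a subunit of the cleavage factor, fell by 0.68 in MC38-LM3a and 0.37 in MC38-LM3b (adjusted p = 0.0018 and 0.028). Lsm10 of the U7 snRNP rose by 0.28 in MC38-LM3a (adjusted p = 0.047), and Tut7, a uridylyltransferase of histone mRNA decay, by 0.75 in MC38-LM3b (adjusted p = 0.0023). The Lsm10 call was lost with no filter, the replicate block, only the libraries compared or no variance trend. It was also lost when any 1 library other than MC38-LM3a replicate 3 was left out. In MC38-LM3a the number that fell was 9 without MC38-LM3a replicate 3 (23.2% of all genes lower), 1 without MC38-P replicate 1 (9.4%) or MC38-LM3a replicate 2 (9.73%), 3 without MC38-LM3a replicate 1 (9.6%), and 2 without MC38-P replicate 2 (8.57%) or any 1 MC38-LM3b library (11.7 to 11.8%). Cpsf1 lies on chromosome 15, as H1f0 does.

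Among genes of DNA replication and S phase, most calls were falls. Of 48 listed genes, 1 rose and 21 fell in MC38-LM3a (2.08% higher, against 14.1% of all genes, and 43.8% lower, against 13.8%). In MC38-LM3b 3 rose (6.25%, against 35.6% of all genes) and 18 fell (37.5%, against 11.2%). Their median log2 fold changes were -0.24 and -0.13. Pcna, the sliding clamp and the most abundant of them, fell from 680 ± 34.8 TPM in MC38-P to 563 ± 18.2 for MC38-LM3a and 530 ± 5.11 for MC38-LM3b (adjusted p = 0.0039 and 0.00057). Mcm5 of the replicative helicase fell by 0.51 and 0.50, and Cdt1, a licensing factor, by 0.62 and 0.41. Rpa3, of the single-strand binding complex, rose by 0.24 and 0.29, and E2f1 rose by 0.34 in MC38-LM3b. Both MC38-LM3b calls were lost with quantile normalization and median centring, where 0 listed genes rose (25.9% and 22.9% of all genes higher). In MC38-LM3a the Rpa3 call was lost with offsets, median centring, only the libraries compared or no variance trend. It was also lost there without MC38-P replicate 2, MC38-LM3a replicate 1 or any 1 MC38-LM3b library. The number that fell ranged from 15 to 31 over the alternatives in MC38-LM3a and from 11 to 40 in MC38-LM3b. In MC38-LM3a it was 15 without MC38-P replicate 2, where 8.57% of all genes were lower, and 31 without MC38-LM3a replicate 3, where 23.2% were lower. In MC38-LM3b it was 40 with length and GC offsets, where 28.3% of all genes were lower, and 11 without MC38-P replicate 2, where 8.09% were lower. The mitosis list, for comparison, had 1 rise and 1 fall of 20 genes in MC38-LM3a (5% each, against 14.1% of all genes higher and 13.8% lower) and 3 rises and 2 falls in MC38-LM3b (15% higher, against 35.6% of all genes, and 10% lower, against 11.2%), with Ccnb2 higher by 0.41 and 0.40 and Aurka down (log2 fold change -0.15 and -0.18), and its most abundant gene, Top2a, was not called. With offsets the mitosis list had 6 falls in MC38-LM3a, where 24.6% of all genes were lower, and 9 in MC38-LM3b (28.3%). With median centring it had 0 rises and 9 falls in MC38-LM3b, where 22.9% of all genes were higher and 26.4% lower. Without MC38-LM3a replicate 3 the mitosis list had 5 falls in MC38-LM3a, where 23.2% of all genes were lower, and 8 rises in MC38-LM3b, where 45.1% were higher. The Aurka call in MC38-LM3a was lost with the replicate block, only the libraries compared or no variance trend. It was also lost there without MC38-P replicate 1 or 2, MC38-LM3a replicate 1 or 2 or any 1 MC38-LM3b library. In MC38-LM3b it was lost with the block or no variance trend, and without MC38-P replicate 2 or MC38-LM3b replicate 1 or 2.

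Histone chaperones and exchange factors had 1 rise and 12 falls of 39 genes in MC38-LM3a (2.56% higher, against 14.1% of all genes, and 30.8% lower, against 13.8%). In MC38-LM3b they had 4 rises (10.3%, against 35.6% of all genes) and 11 falls (28.2%, against 11.2%). Mcm2 stands in this list and in that of DNA replication, and it counts as a fall in both lists in both derivatives. Npm1, an abundant nucleolar chaperone, fell from 4267 ± 90.1 TPM in MC38-P to 3130 ± 123 for MC38-LM3a and 3063 ± 128 for MC38-LM3b (adjusted p = 0.00017 and 7.8e-05). Npm3, of the same family, fell by 0.67 and 0.91, and Tonsl, a reader of newly deposited histones, by 0.86 and 0.45. Tonsl also lies on chromosome 15. Asf1b, an H3-H4 chaperone, rose by 0.24 and 0.25, and Hjurp, the CENP-A chaperone, rose by 0.53 in MC38-LM3b. The median of all genes in MC38-LM3b was 0.21, close to the rise of Asf1b there. The MC38-LM3a call of Asf1b was lost with the replicate block, only the libraries compared or no variance trend. It was also lost without MC38-P replicate 2 or 3 or MC38-LM3a replicate 1 or 2. In MC38-LM3a the number that fell was 21 without MC38-LM3a replicate 3 (23.2% of all genes lower) and 21 with offsets (24.6%). In MC38-LM3b it was 7 without MC38-LM3b replicate 2 (8.07%) and 23 with offsets (28.3%). Of 12 histone genes outside the symbol rule, 4 were listed and 2 tested. Cenpa, which encodes the centromeric H3, fell by 0.14 in MC38-LM3b (210 ± 5.45 TPM in MC38-P and 190 ± 1.66 in MC38-LM3b, adjusted p = 0.041) and was not called in MC38-LM3a (190 ± 2.70 TPM, adjusted p = 0.063). The MC38-LM3b call of Cenpa was lost with the replicate block and with no variance trend. It was also lost without any 1 MC38-P library, MC38-LM3a replicate 1 or 2 or MC38-LM3b replicate 1 or 2. None of the 9 tail-poor noncoding RNA genes examined was listed, so capture could not be compared through them.

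Among markers of other cell types, those of macrophages had the highest sum. Of the 5 listed, Cd68 had 27.7 to 45.6 TPM and Cd14 10.3 to 16.03 TPM, above most clustered histone genes, and the 5 together summed to 39.3 to 40.9 TPM in MC38-P, against 49.2 to 54.1 for MC38-LM3a and 56.0 to 60.4 for MC38-LM3b, while Csf1r stayed at or below 0.14 and Lyz2 at or below 0.28 TPM. The listed hepatocyte markers summed to at most 4.29 TPM, with Alb at or below 0.29, and the T cell and B cell markers to at most 0.45 TPM. Fibroblast markers summed to 12.6 to 18.8 TPM in MC38-P, against 5.44 to 7.74 for MC38-LM3a and 8.00 to 8.32 for MC38-LM3b, with Dcn at or below 0.13 TPM. Col1a1 made up most of the parental sum, at 10.36 to 15.99 TPM in MC38-P and 3.52 to 5.03 in the derivatives, while Pdgfrb was at 1.15 to 1.74 in MC38-P and 3.48 to 3.80 in MC38-LM3b. Endothelial markers summed to at most 2.03 and those of red blood cells to at most 0.76 TPM. The part of these markers in the histone results was not tested.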

How the data were processed

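Poly(A) RNA of 3 lines, the parental MC38-P and its derivatives MC38-LM3a and MC38-LM3b (9 libraries), was captured on oligo(dT) beads and sequenced by the authors on the DNBSEQ platform. The authors deposited TPM values for each gene, rounded to 2 decimals, and the submitters' processing notes name HISAT and GRCm39. The quantification tool and its treatment of reads shared between copies are not given in the sources used here. The depth is unknown, so no counting error is given, and a value of 0 means only that a gene is listed at 0.

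The members, the gene lists and the tests were chosen with earlier results of these data known. limma 3.58.1 was run under R 4.3.3 on log2(TPM + 1), over the 11287 genes reaching 1 TPM in 3 or more libraries, in 1 model of all 9 libraries with a variance trend. The Benjamini-Hochberg adjustment ran over all of these genes. The authors used DESeq2, which needs counts and was not run. A gene called at an adjusted p under 0.05 that also moved by over 1 log2 unit was a DEG. The procedure was tested on simulated data.

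Any tested member could be named. Every DEG, the most abundant member of each family and, from each list, the most abundant gene and the largest called rise and fall were named. Slbp and Npat were named after their values were seen. Transcript ends, length and GC content came from GENCODE M21 (98.3% of tested genes had a length), and gene order and promoters from RefSeq GRCm38.p6, matched by NCBI Gene number (72 of 72 members). Positions in GRCm39 are not given. Sums, ratios and leaving out each library were recomputed as alternatives, with pseudocounts of 0.1 and 0.5, other filters, offsets, quantile normalization, median centring, a replicate block, only the libraries compared and no variance trend.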

Additional observations from a re-analysis of the deposited data

How the results depend on the processing

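Over 21 alternatives, the number of members called stayed within 1.5 times in MC38-LM3a and MC38-LM3b against MC38-P, while the number tested ran from 26 (filter of 5 TPM) to 72 (no filter). Calls that held in every alternative that tested the gene were 6 of 12 in MC38-LM3a (H1f0, H1f2, H2ac11, H2bc4, H3c3 and Macroh2a2) and 11 of 17 in MC38-LM3b (the same 6 with H1f4, H2bc13, H2bc21, H3f3b and H4c9). The others were lost in this many alternatives: in MC38-LM3a 12 for H1f4, 9 for H4c3, 5 for H3f3c, 4 for H2az2, 3 for H2bc21 and 1 for H3f3b, and in MC38-LM3b 8 for H2az1, 7 for H1f3, 6 for H4c2, 5 for H2az2, 3 for H3c2 and 2 for H3c13. The share of all called genes that held is not given here, so these counts do not compare members with other genes. Between the derivatives, quantile normalization called 1 member (0.0354% of all genes higher and 0.0532% lower) and median centring 1 (0.0443% and 0.062%). Leaving out 1 library called 0 to 13, the 13 without MC38-LM3a replicate 3 (52.2% of all genes higher and 4.24% lower). The cause was not tested. The clustered sum as a percent of the variant sum depended on the definition of the classes: with H2ax counted as clustered it was 13.4% for MC38-P, 14.8% for MC38-LM3a and 13.6% for MC38-LM3b, without H2ax, H2aj and H1f0 it was 13.7, 14.6 and 13.4%, and without the most abundant member of each class it was 14.5, 16.3 and 14.6%. With offsets before summing it was 11.2, 12.7 and 12.1%, so that MC38-LM3b turned from below MC38-P (11.5 against 11.7%) to above it. H2ac18 reversed in MC38-LM3b when summed with H2ac19 (log2 fold change 0.51), since the summed value is that of the pair.

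With a replicate block, 9 members were called in MC38-LM3a (against 19.5% of all genes), 15 in MC38-LM3b (34.5%) and 0 between the derivatives, and with the block and offsets 15 (47.4%), 20 (53.9%) and 0. Deviations of same-numbered libraries correlated from -0.66 to -0.17 between MC38-P and MC38-LM3a, where differently numbered ones ranged from -0.46 to 0.55. With MC38-LM3b the same-numbered correlations were weak but all positive (0.035 to 0.075), against -0.063 to 0.0073 for different numbers. Whether the replicate numbers pair the libraries was not tested. The lists were recounted in alternatives chosen after seeing the data. Low TPM with unknown depth limits the clustered genes.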
